A study of Mus musculus with 24 samples.

Results

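The sodium pump (Na,K-ATPase) was followed through its accessory subunits, the beta subunits Atp1b1, Atp1b2 and Atp1b3 and the FXYD proteins Fxyd1, Fxyd2, Fxyd6 and Fxyd7. These 7 genes were chosen by symbol, through Ensembl identifiers, because the make-up of the pump differs between kidney and brain. All 7 were found among the 30153 genes of the deposited table. Their values are TPM, a relative abundance per unit of transcript length scaled to a common library total, so levels of different genes can be set side by side.

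The series sequenced polyadenylated RNA labelled as mouse kidney, from 24 libraries in 6 groups of 4. Its title names the response of the renal transcriptome to western diet in hypertensive animals overexpressing the human angiotensin receptor type 1. The groups were aged Hap-I mice without the diet, Hap-I adults without the diet, aged Hap-I mice on western diet, Hap-I adults on western diet, Hap-II adults on western diet and C57 adults. Hap-I and Hap-II are short for Haplotype-I and Haplotype-II in the labels, the strain label of every group is C57/BL6, and the design text gives 4 animals a group. For C57 adults the labels name neither a haplotype nor a diet. A difference between a group on western diet and C57 adults therefore joins the diet to the transgene, and the effects cannot be told apart. Library titles differ along the same line, with A, B or C for groups on the diet and S for C57 adults and both groups without it. What these letters stand for is not given. Y-linked transcripts, given below, also differed between the groups on the diet and C57 adults. The promoter that drives the transgene, the exact ages, the sex and the batch are not in the labels.

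The sodium pump moves sodium out of and potassium into every animal cell at the cost of ATP. Its alpha subunit carries out transport, its beta subunit brings the alpha subunit to the plasma membrane and shapes its affinity for potassium, and a small FXYD protein can bind the pair and tune its affinity for ions. Renal tubule cells place the pump in their basolateral membrane, where it drives the reabsorption of sodium from the urine. Neurons use it to restore ion gradients after firing, and astrocytes use it to clear potassium.

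Atp1b1 (ENSMUSG00000026576) lies on the minus strand of GRCm38 chromosome 1 at 164437109 to 164458355 and overlaps Nme7, on the other strand, by 617 bases. The libraries are stranded, but the use of strand in quantification is not given in the sources used here. Atp1b2 (ENSMUSG00000041329) lies at 69599736 to 69605942 of chromosome 11, and Atp1b3 (ENSMUSG00000032412) at 96332655 to 96364442 of chromosome 9, both on the minus strand. The FXYD genes form 2 clusters. On the plus strand of chromosome 9, Fxyd6 (ENSMUSG00000066705, 45370185 to 45396159) is followed after 3509 bases by Fxyd2 (ENSMUSG00000059412, 45399669 to 45410278). On the minus strand of chromosome 7, Fxyd7 (ENSMUSG00000036578, 31042513 to 31051467) stands 31 bases from Fxyd5 and 210 bases from Fxyd1 (ENSMUSG00000036570, 31051678 to 31057199). Of the 31-base words in Atp1b3 transcripts, 16.2% also occur in other genes, nearly all of them in Gm1848, which reached at most 0.124 TPM in any library. At most 0.268% of the words of each of the other members were shared.

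Promoter sequences were matched for 4 members in the RefSeq table for GRCm38.p6, and the 250 bases before a start are shown for each. They set the widely expressed beta subunits Atp1b1 and Atp1b3 beside Fxyd1 and Fxyd6, which were high in neural RNA. No match was found for Atp1b2 and Fxyd7, also high in neural RNA, or for the renal Fxyd2. The comparison therefore covers only the members that were matched. Capitals mark the GC box, GGGCGG read on either strand. It occurs in 32.7% of the 32851 promoters of the same length in that table.
Atp1b1, chr1:164458356-164458605, minus strand: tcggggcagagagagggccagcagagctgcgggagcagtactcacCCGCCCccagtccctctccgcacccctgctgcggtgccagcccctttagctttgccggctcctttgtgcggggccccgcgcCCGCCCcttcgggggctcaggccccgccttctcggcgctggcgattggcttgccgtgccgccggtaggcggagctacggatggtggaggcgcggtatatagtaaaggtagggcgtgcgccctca
Atp1b3, chr9:96364432-96364681, minus strand: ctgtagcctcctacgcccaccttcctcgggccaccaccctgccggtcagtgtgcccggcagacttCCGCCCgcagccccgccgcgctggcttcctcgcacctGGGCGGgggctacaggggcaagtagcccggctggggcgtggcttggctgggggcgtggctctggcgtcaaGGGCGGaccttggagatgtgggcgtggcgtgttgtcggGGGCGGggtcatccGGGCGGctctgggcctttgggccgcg
Fxyd1, chr7:31054854-31055103, minus strand: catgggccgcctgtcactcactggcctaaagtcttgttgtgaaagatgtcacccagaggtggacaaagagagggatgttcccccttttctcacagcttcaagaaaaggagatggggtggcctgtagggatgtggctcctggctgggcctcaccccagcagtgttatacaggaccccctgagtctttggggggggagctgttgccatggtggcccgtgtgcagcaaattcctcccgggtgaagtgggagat
Fxyd6, chr9:45369935-45370184, plus strand: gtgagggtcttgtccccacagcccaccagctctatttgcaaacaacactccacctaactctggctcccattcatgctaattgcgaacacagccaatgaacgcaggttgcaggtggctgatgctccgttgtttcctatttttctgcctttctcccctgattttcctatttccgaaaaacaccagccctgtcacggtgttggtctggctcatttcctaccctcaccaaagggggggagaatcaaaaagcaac
The Atp1b1 promoter held 2 GC boxes and 24 CpG dinucleotides at 70.4% GC, and the Atp1b3 promoter held 5 boxes and 24 CpG at 73.6% GC. Of all promoters in the table, 12% held as many CpG. A further start of Atp1b3, at chr9:96363716-96363965, had 35 CpG and no box. The Fxyd1 and Fxyd6 promoters held no box, with 3 CpG at 57.2% GC for Fxyd1 and 5 CpG at 50.4% GC for Fxyd6, against a median of 6 CpG and 52.4% GC over all promoters. The Fxyd1 stretch lies inside the span given above for the gene, so it precedes an internal start and not the outermost one. A match describes these letters and says nothing of binding.

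The tissue label did not hold for 8 of the libraries. All 8 principal cell markers, from Aqp2 to Gata3, stayed below 1 TPM in every library labelled Hap-I without the diet, and so did 7 of 8 intercalated cell markers. Of thick ascending limb markers, 7 of 8 did so in adults and 5 of 8 in aged mice. Other lists were less clear, with 3 of 7 distal convoluted tubule and 2 of 7 podocyte markers in either group. Summed proximal tubule markers came to 9.37 to 16.3 TPM in aged Hap-I mice without the diet and 7.57 to 27.5 TPM in Hap-I adults without it, against 1782 to 7143 TPM in the other 16 libraries. Summed neuron markers came to 7646 to 8182 TPM in the aged and 6723 to 7447 TPM in the adult libraries without the diet, against at most 22.3 TPM elsewhere. These 8 libraries are called neural below and the other 16 nephron libraries. The effect of the diet within Hap-I mice would set neural against nephron RNA, so it is not tested. Genes above 0 TPM numbered 15975 to 18761 a library, and read depth is unknown because TPM keep no totals.

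The beta subunits differed in how far their levels followed the tissue. Atp1b1, the beta subunit of most epithelia and of neurons, stood at 2023, 1912, 1885 and 1994 TPM in aged Hap-I mice without the diet and at 1329, 1823, 1407 and 1662 TPM in Hap-I adults without it. In C57 adults it stood at 866, 1755, 1575 and 1865 TPM, so the C57 range took in all 4 adult but none of the aged neural values. Its order over groups was aged and adult Hap-I without the diet (means 1954 and 1555 TPM), C57 adults (1515), then aged Hap-I, Hap-II and adult Hap-I mice on the diet (739, 612 and 449.8 TPM). In that order aged and adult Hap-I mice without the diet did not overlap, and every later pair of neighbours did. By mean TPM, Atp1b1 ranked 32nd and 38th of 30153 genes in the neural groups and 51st in C57 adults.

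Atp1b2, the glial beta subunit also known as AMOG, averaged 338 ± 36.5 TPM in the 8 neural libraries (SD, range 283 to 400.0) and 3.75 ± 3.50 TPM in the 16 nephron libraries (SD, range 0.684 to 11.4). The ranges lay apart and the means differed 90.2-fold. The nephron values themselves fell into separate ranges, at 5.41, 11.4, 10.1 and 9.22 TPM in C57 adults and at 4.38 TPM or less in all 12 libraries on the diet. Atp1b3, a beta subunit of many cell types, averaged 93.7 ± 12.2 TPM in neural and 57.1 ± 23.1 TPM in nephron libraries, with overlapping ranges. Its order over groups was aged Hap-I without the diet (102 TPM), C57 adults (91.6), Hap-I adults without the diet (85.1), which overlapped in turn, and then, apart from these, Hap-II adults (48.5), aged Hap-I mice (47.4) and Hap-I adults (40.7) on the diet.

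The FXYD genes among the members, which were proposed for their difference between tissues, showed a fuller exchange. Fxyd2, the gamma subunit that lowers the sodium affinity of the renal pump, had 1.54, 3.45, 1.26 and 3.79 TPM in aged Hap-I mice without the diet and 9.27, 5.00, 2.22 and 6.01 TPM in Hap-I adults without it, against 248 to 1371 TPM in the 16 nephron libraries. Fxyd7, a brain FXYD protein, had 60.5, 46.2, 91.2 and 92.3 TPM in the aged and 113, 58.2, 75.4 and 69.1 TPM in the adult neural libraries. It was listed at 0 in 11 of the 12 libraries on the diet, with 0.0607 TPM in the last, and had 0.253, 0.214, 0.286 and 0 TPM in C57 adults. No fold is given for it, since most nephron libraries were listed at 0.

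Fxyd6, also called phosphohippolin, averaged 38.4 ± 12.9 TPM in neural and 1.88 ± 1.60 TPM in nephron libraries (SD, n = 8 and 16), a 20.5-fold difference with no overlap. The neighbours Fxyd6 and Fxyd2, 3509 bases apart on the same strand, thus had opposite patterns, and the difference was 20.5-fold up for Fxyd6 and 0.00602 times for Fxyd2 at 4.07 TPM in neural against 676 TPM in nephron libraries. Fxyd1, known as phospholemman and best studied in heart and skeletal muscle, averaged 26.1 ± 7.66 TPM in neural and 2.52 ± 1.94 TPM in nephron libraries, a 10.4-fold difference. The lowest neural value, 10.3 TPM in aged mouse 2, still lay above the highest nephron value, 7.23 TPM. Markers of the choroid plexus, which also expresses Fxyd1, summed to 6646 TPM in adult neural library 2 and to between 116 and 1211 TPM in the other 7, beside Fxyd1 values of 34.2 TPM in that library and 10.3 to 33.2 TPM in the others, and their part was not tested.

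**Figure D1:**
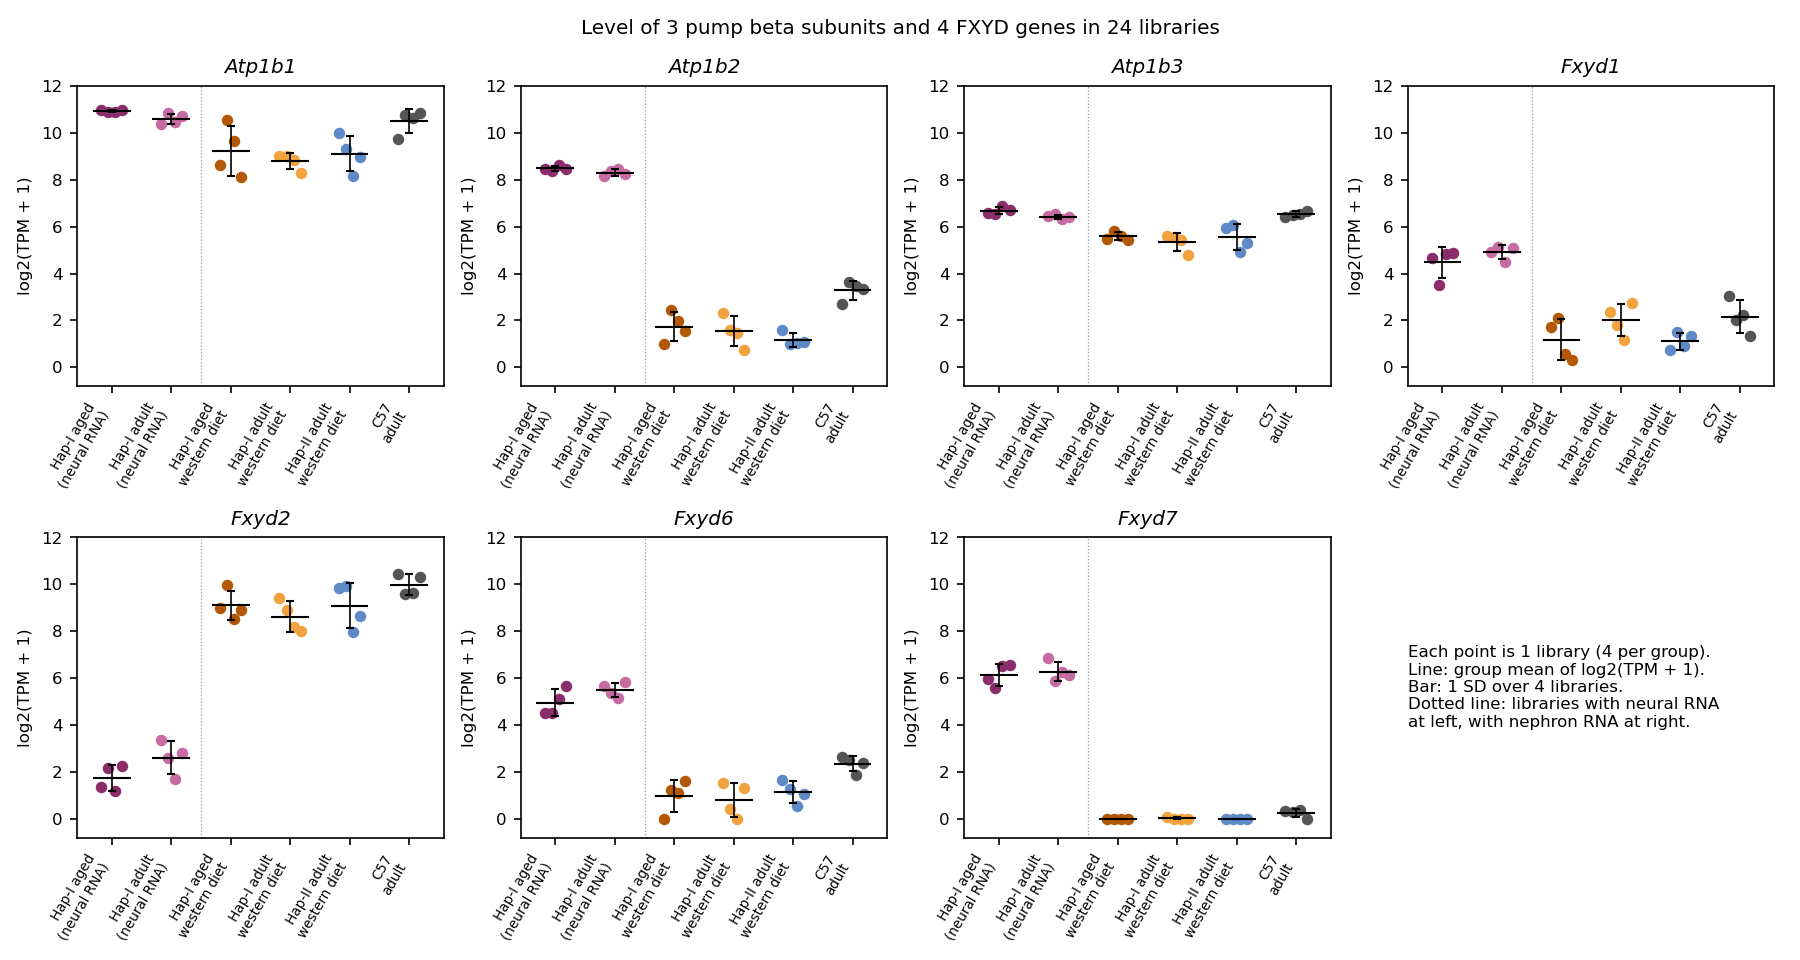
Each panel plots 1 gene as log2(TPM + 1) for all 24 libraries, with points for libraries, lines for group means and bars for the SD (n = 4). Fxyd2 falls to 9.27 TPM or less in the 8 neural libraries at left, Atp1b2, Fxyd1, Fxyd6 and Fxyd7 lie higher there than in every nephron library, and Atp1b1 and Atp1b3 overlap.

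On the log2(TPM + 1) scale, the mean of the neural groups minus the mean of the nephron groups was 6.47 for Atp1b2, 3.91 for Fxyd6, 3.07 for Fxyd1, 1.35 for Atp1b1, 0.80 for Atp1b3 and -7.03 for Fxyd2. The genes were proposed for this difference, so it is given without a test. The median of all 15200 genes tested was itself 0.88, and median-of-ratios rescaling left Atp1b1 at 0.37 and turned Atp1b3 to -0.165. Ranges without overlap were held by 41.3% of genes in the higher and 11.7% in the lower direction, so separate ranges alone were common between these RNAs.

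The shares within each subunit family do not change when a library is multiplied by 1 factor. Atp1b1 made up 80.1 ± 2.07% of summed beta TPM in neural libraries and 92.1 ± 2.44% in nephron libraries (SD, n = 8 and 16). Atp1b2 took 15.6 ± 1.80% in neural libraries, against 0.386 ± 0.182% in nephron libraries. Atp1b3 took 4.31 ± 0.434% in neural and 7.54 ± 2.42% in nephron libraries. Atp1b4, which in placental mammals is a muscle nuclear protein, was listed at 0 in all but 1 library, where it had 0.0232 TPM. Thus the same beta subunit led in both tissues, while a different FXYD gene led in each. Fxyd7 held 45.7 ± 5.47% of summed FXYD TPM in neural libraries, followed by Fxyd6 at 22.9 ± 3.94% and Fxyd1 at 15.7 ± 3.68%. Fxyd5, which is no member, came next at 11.4 ± 1.76%. Fxyd2 held 2.41 ± 1.24% there, against 94.1 ± 2.01% in nephron libraries, where no library gave it less than 89.45%.

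**Figure D2:**
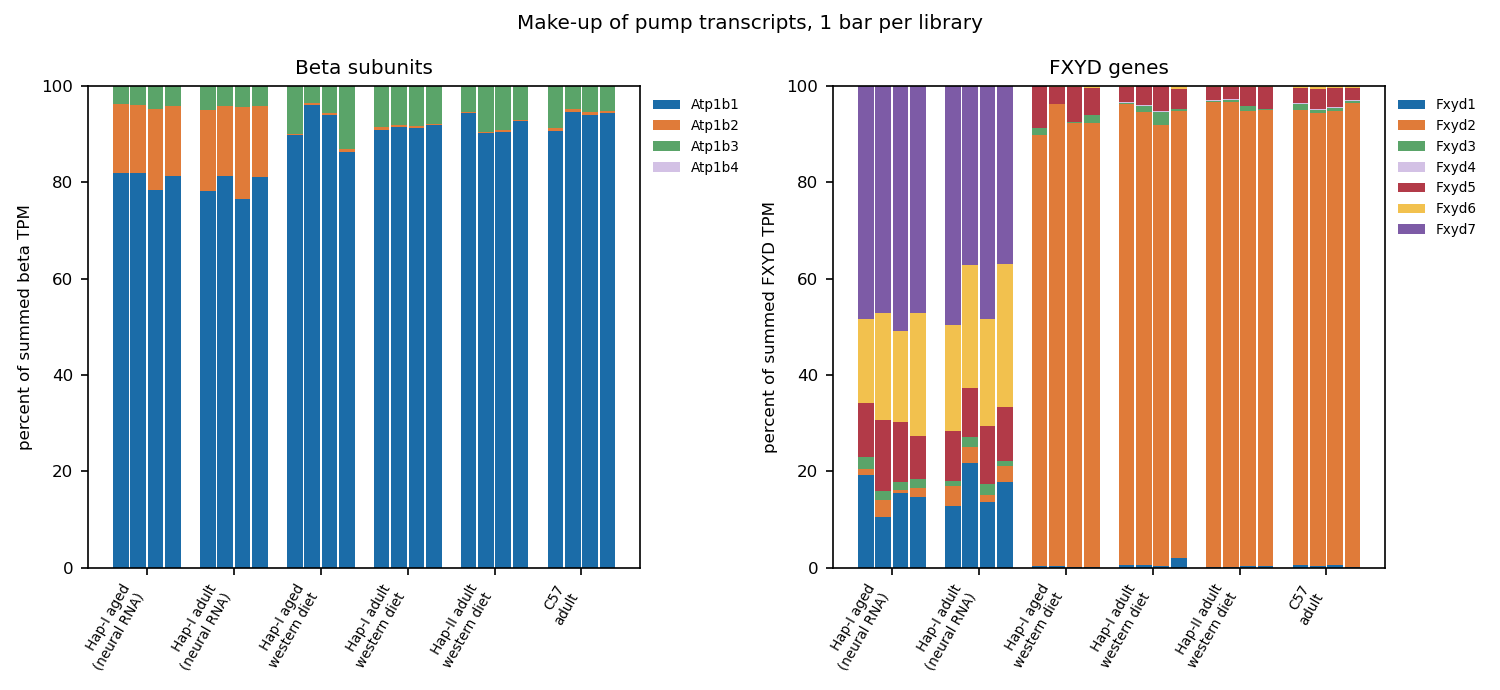
Stacked bars give the percent of summed TPM held by each gene within the beta and FXYD families, 1 bar per library in 6 groups of 4. Atp1b1 stays the largest beta share at 76.4% or more in every library, while Fxyd2 takes at least 89.45% of the FXYD sum in nephron libraries and at most 4.06% in neural ones.

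The partners of these subunits were taken from a list of 11 other genes of the family, of which 8 were tested between neural and nephron RNA with limma (moderated linear models) on log2(TPM + 1), Benjamini-Hochberg adjustment over all genes and a threshold of 0.05. By this rule 63.5% of all genes were called higher and 23.9% lower in neural libraries. The Nkain genes encode membrane proteins that interact with the beta subunit. Nkain1 averaged 22.7 TPM in neural libraries, against 4.72 TPM in nephron libraries, and Nkain4 53.8 TPM, against 1.13 TPM, and both were called higher. Nkain2 averaged 27.3 TPM in neural libraries, against 0.0304 TPM in nephron libraries, and Nkain3 3.73 TPM, against 0.0158 TPM. Fxyd5, or dysadherin, was called lower at 18.5 TPM in neural libraries, against 27.9 TPM in nephron libraries, but the ranges overlapped. Hap-I and Hap-II adults on the diet, at 17.7 and 20.2 TPM, stood near the neural level. Aged Hap-I mice on the diet and C57 adults averaged 36.5 and 37.1 TPM. The gastric proton pump subunit Atp4a averaged 0.424 TPM in neural libraries, against 10.8 TPM in nephron libraries, and the collecting duct gene Fxyd4 0.0392 TPM, against 0.754 TPM. Nkain2 and Nkain3 reached 1 TPM in 0 of 16 nephron libraries, and Atp4a and Fxyd4 in 0 of 8 neural ones, so these 4 passed the filter on low values only through the tissue where they are high, and their values are a description. Fxyd3 averaged 2.75 TPM in neural and 4.94 TPM in nephron libraries (adjusted p = 0.368). Atp1b4, Atp4b and Atp12a fell below 1 TPM in too many libraries to be tested, with highest values of 0.0232, 0.168 and 1.20 TPM.

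Within nephron RNA, Hap-I adults on western diet were set against C57 adults in a fit of the 16 nephron libraries, leaving out genes that reached 1 TPM in fewer than 4 of them. By limma, 5 of the 6 members tested were lower, and Fxyd7 fell below the filter. In that comparison 59.7% of all 12923 genes were called lower, so a lower call was the usual result of a gene there. The median of all genes was -0.80, and members are read against it. The share of all genes without overlap was not computed for comparisons within nephron RNA, so separate ranges there are a description only.

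Atp1b1 had 516, 519, 453 and 312 TPM in Hap-I adults fed the diet, against 866, 1755, 1575 and 1865 TPM in C57 adults. The groups did not overlap, and the mean in Hap-I adults was 0.297 times that in C57 adults (log2 change -1.72 ± 0.45 SE, adjusted p = 0.00534). Atp1b2 had 4.03, 2.00, 1.77 and 0.684 TPM in Hap-I adults fed the diet, against 5.41, 11.4, 10.1 and 9.22 TPM in C57 adults (-1.75 ± 0.34, adjusted p = 0.00151 by limma). Every library on the diet lay below the lowest C57 library. Atp1b3 had 48.04, 46.4, 41.5 and 26.7 TPM in Hap-I adults fed the diet, against 83.0, 89.9, 92.1 and 102 TPM in C57 adults (-1.18 ± 0.25, adjusted p = 0.00192 by limma).

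Among the FXYD genes, Fxyd2 had 689, 483, 286 and 253 TPM in Hap-I adults fed the diet, against 1371, 765, 800.2 and 1266 TPM in C57 adults. These groups did not overlap either (-1.36 ± 0.43, adjusted p = 0.014 by limma), but the call was lost without library 4 of Hap-I adults on the diet (-1.15, adjusted p = 0.0527) or with mitochondrially encoded genes removed (-1.08, adjusted p = 0.0525). Fxyd6 had 1.85, 0.323, 0 and 1.46 TPM in Hap-I adults fed the diet, against 5.13, 4.76, 2.68 and 4.24 TPM in C57 adults (-1.55 ± 0.37, adjusted p = 0.00352 by limma). Fxyd1 had 4.18, 2.53, 1.27 and 5.62 TPM in Hap-I adults fed the diet, against 7.23, 3.10, 3.63 and 1.49 TPM in C57 adults, and was not called (-0.12 ± 0.43, adjusted p = 0.805).

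The calls depended on how the libraries were scaled. Median-of-ratios rescaling, which sets the median gene to no change, called 2317 genes higher and 1780 lower, against 294 higher and 7715 lower as deposited. Quantile normalization called 1949 higher and 1872 lower. Of the members, Atp1b2 was called lower under all 3 scalings (-0.98, adjusted p = 0.009, with median-of-ratios rescaling, and -0.84, adjusted p = 0.0154, with quantile normalization, by limma). Atp1b1 came to -0.70 (adjusted p = 0.0852), Fxyd6 to -0.91 (0.0968), Fxyd2 to -0.34 (0.47) and Atp1b3 to -0.18 (0.365) with median-of-ratios rescaling, while with quantile normalization all but Fxyd6 stayed called.

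Other transcripts moved with the same groups. Proximal tubule markers had a median log2 change of -1.35 in Hap-I and -0.99 in Hap-II adults fed the diet, against C57 adults. Those of the thick ascending limb had -2.06 and -1.22, and those of the distal convoluted tubule -1.90 and -1.28. Principal cell markers had -1.92 and -1.415, and intercalated cell markers -2.15 and -1.46, where the medians of all genes were -0.80 and -0.59. Outside the tubule, the 6 tested smooth muscle markers had -1.29 and -1.58, endothelial markers -1.09 and -0.89, and podocyte markers -0.84 and -0.615. In Hap-II adults limma called 1 of 8 thick ascending limb markers lower and 1, Cldn10, higher. Of all genes, 36.9% were called lower there and 2.73% higher. Mitochondrially encoded transcripts took 25.0 to 34.7% of TPM in Hap-I adults and 21.2 to 27.8% in Hap-II adults fed the diet, against 12.4 to 16.9% in C57 adults. The 5 erythroid genes summed to 3906 to 9619 TPM in Hap-I adults and 2700 to 10650 TPM in Hap-II adults fed the diet, against 832 to 2311 TPM in C57 adults. The 6 adipocyte markers summed to 0.0441 to 22.97 TPM and 1.30 to 13.3 TPM in the same 2 groups on the diet, with Plin1 and Lep below 1 TPM throughout, against 27.3 to 1294 TPM in C57 adults. The 8 astrocyte markers summed to 59.5 to 69.3 TPM in Hap-I adults and 38.6 to 132 TPM in the Hap-II adults fed the diet, against 226 to 299.7 TPM in C57 adults, with Gfap below 1 TPM in all 12 libraries. Most of this sum was 1 gene, Aldh1l1, with means of 49.8 and 62.3 TPM on the diet and 200.4 TPM in C57 adults. The sum is therefore no measure of astrocyte RNA. The 10 neuron markers summed to 2.21 to 6.82 TPM in Hap-I adults and 2.84 to 8.90 TPM in the Hap-II adults fed the diet, with Slc17a7 at 0 in all 8, against 15.2 to 22.3 TPM in C57 adults, where 4 of the 10 stayed below 1 TPM. Eif2s3y, which is Y-linked, stood at 5 TPM or above in 3 of 4 Hap-I and 2 of 4 Hap-II adult libraries from the diet, against 0 of 4 from C57 adults. With averaged Y-linked expression added to the fit as a covariate, 3 members stayed lower in Hap-I adults, namely Atp1b2, Atp1b3 and Fxyd6, while Atp1b1 and Fxyd2 were not called (adjusted p = 0.0649 and 0.222 by limma). The part of each of these in the lower member values was not tested further, and in whole tissue fewer cells of a type and less RNA per cell cannot be told apart.

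**Figure D3:**
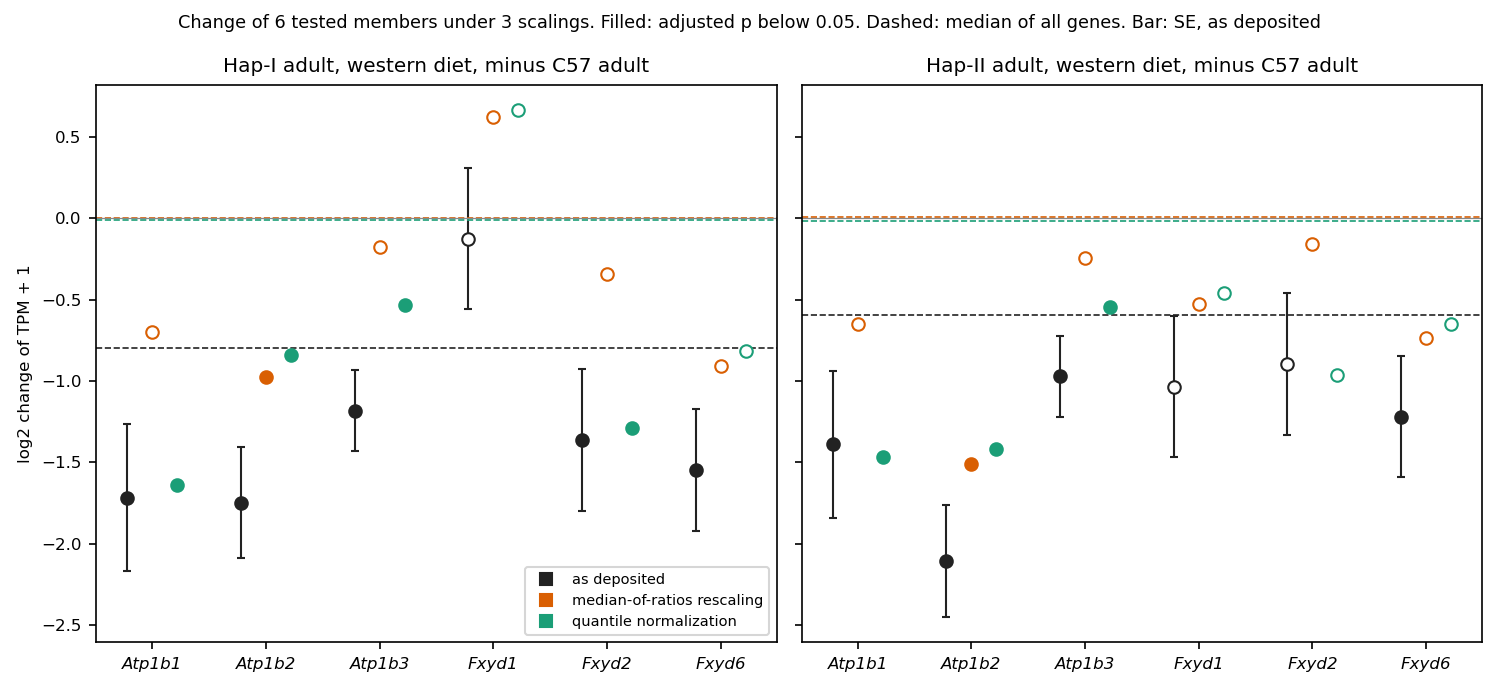
Points give the log2 change of TPM + 1 of the 6 tested members in Hap-I (left) and Hap-II (right) adults on western diet minus C57 adults, as deposited and under 2 other scalings, filled where the adjusted p is below 0.05, with SE bars for deposited values. Atp1b2 is filled in all 6 positions, and median-of-ratios rescaling moves the median of all genes (dashed) from -0.80 in Hap-I and -0.59 in Hap-II adults to about 0 and leaves Atp1b2 as the only filled point. Fxyd1 lies below 0 as deposited and above 0 under both other scalings in Hap-I adults.

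Hap-II adults on western diet were set against the same C57 libraries, so this comparison and the last share their controls. By limma, 4 of 6 members tested were lower, where 36.9% of all genes were called lower and the median of all genes was -0.59. Atp1b1 had 1023, 631, 287 and 508 TPM in Hap-II adults fed the diet, against 866 to 1865 TPM in C57 adults, with the highest Hap-II library inside the C57 range (-1.39 ± 0.45 SE, adjusted p = 0.0262). Atp1b2 had 2.05, 0.997, 1.03 and 1.09 TPM in Hap-II adults fed the diet, all below the lowest C57 value of 5.41 TPM (-2.11 ± 0.34, adjusted p = 0.00122 by limma). Atp1b3 had 59.7, 66.6, 29.1 and 38.7 TPM in Hap-II adults fed the diet, again below the lowest C57 value, 83.0 TPM (-0.97 ± 0.25, adjusted p = 0.0101 by limma).

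Fxyd6 had 2.14, 1.43, 0.459 and 1.07 TPM in Hap-II adults fed the diet, against 2.68 to 5.13 TPM in C57 adults (-1.22 ± 0.37, adjusted p = 0.0205 by limma). Fxyd2 had 912, 984, 248 and 396.5 TPM in Hap-II adults fed the diet, against 765 to 1371 TPM in C57 adults, with an overlap and no call (-0.90 ± 0.43, adjusted p = 0.103). Fxyd1 had 0.643, 1.86, 0.879 and 1.49 TPM in Hap-II adults fed the diet, against 1.49 to 7.23 TPM in C57 adults (-1.03 ± 0.43, adjusted p = 0.0641). Fxyd7 was listed at 0 in all 4 Hap-II libraries. Leaving out library 3 of Hap-II adults, or library 2 or 4 of C57 adults, left 2 members called, Atp1b2 and Atp1b3. Without either of those 3, or without library 4 of Hap-II adults or 3 of C57 adults, the Atp1b1 call was lost (adjusted p 0.0601 to 0.108, limma), and the number of all genes called lower came to between 1678 and 2675 in place of 4774. With median-of-ratios rescaling 1661 genes were called higher and 1215 lower, in place of 353 higher and 4774 lower, and Atp1b2 was the only member called (-1.51, adjusted p = 0.00195). The Fxyd6 call was also lost with quantile normalization, a pseudocount of 0.1, mitochondrially encoded genes removed or the Y-linked covariate (adjusted p of 0.277, 0.134, 0.0561 and 0.0837 by limma), and the Atp1b1 call with the Y-linked covariate or no low filter (0.109 and 0.0525).

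Of the 11 other family genes 6 were tested here, with 4 lower in Hap-I and 3 lower in Hap-II adults fed the diet and 0 higher in either, where 59.7% and 36.9% of all genes were called lower. With median-of-ratios rescaling 2 and 1 of the 6 were lower, where 14% and 9.54% of all genes were. Atp4a averaged 3.50 and 6.73 TPM in Hap-I and Hap-II adults on the diet, against 28.3 TPM in C57 adults (-2.80 and -2.09, adjusted p = 0.000751 and 0.00451 by limma). Fxyd5 averaged 17.7 and 20.2 TPM on the diet, against 37.1 TPM in C57 adults, and was lower in each comparison. Fxyd4 averaged 0.412 and 0.638 TPM on the diet, against 1.91 TPM in C57 adults. It reached 1 TPM in 0 of 4 Hap-I and 2 of 4 Hap-II adults and in 4 of 4 C57 adults, which alone carried it past the filter, so its 2 calls are no separate test. They are part of the counts of 4 and 3 lower genes above. Nkain1 was lower in Hap-I adults (1.89 TPM, against 6.33 TPM in C57 adults, adjusted p = 0.0228 by limma) and not called in Hap-II adults (5.18 TPM, adjusted p = 0.531).

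Carriers that let sodium into tubule cells, such as the epithelial channel and the diuretic-sensitive cotransporters, are the demand that the pump meets. Of 13 on a list, 12 were tested and 9 were lower in Hap-I adults fed the diet against C57 adults, with a median change of -1.83, where 59.7% of all genes were called lower and their median was -0.80. Scnn1a, a channel subunit, averaged 6.60 TPM in Hap-I adults fed the diet, against 52.0 TPM in C57 adults (-2.87 ± 0.54 SE, adjusted p = 0.00136 by limma). Slc12a1, the cotransporter of the thick ascending limb, averaged 74.2 TPM in Hap-I adults fed the diet, against 433 TPM in C57 adults (-2.79 ± 0.62, adjusted p = 0.00251), and Slc12a3, that of the distal convoluted tubule, 56.9 against 289 TPM (-2.38 ± 0.49, adjusted p = 0.00181). In Hap-II adults 7 of the 12 were lower, with a median of -1.32, where 36.9% of all genes were. With median-of-ratios rescaling 6 and 4 of the 12 were lower in Hap-I and Hap-II adults, where 14% and 9.54% of all genes were. Of 13 regulators and anchors of the pump, 12 were lower in Hap-I adults (median -1.45), led by the caveolin gene Cav1 at 7.47 TPM on the diet against 42.1 TPM in C57 adults, and 8 in Hap-II adults (median -1.06). Beside these counts stand the same 59.7% and 36.9% of all genes. Median-of-ratios rescaling left 6 and 4 of these 13, beside 14% and 9.54% of all genes.

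Ratios of subunits within a library do not change when it is multiplied by 1 factor, as in median-of-ratios rescaling, though they do under quantile normalization. They are taken from the deposited TPM, were computed after the values had been seen and are given as a description. The ratio of Fxyd2 to Atp1b1 TPM came to 0.928 ± 0.298 in Hap-I adults, 1.04 ± 0.571 in aged Hap-I mice and 1.02 ± 0.361 in Hap-II adults fed the diet, against 0.801 ± 0.531 in C57 adults (SD, n = 4). Its spread within groups exceeded the differences between them. The ratio of Atp1b1 to Atp1b3 TPM was 10.7, 11.2, 10.9 and 11.7 in Hap-I adults, 9.03, 26.8, 16.5 and 6.56 in aged Hap-I mice and 17.1, 9.47, 9.86 and 13.1 in Hap-II adults fed the diet, against 10.4, 19.5, 17.1 and 18.4 in C57 adults. The 4 values of Hap-I adults lay within 10.7 to 11.7, inside the range of each of the other 3 groups. In neural libraries the same ratio was 18.8 ± 2.13 (SD, n = 8).

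**Figure D4:**
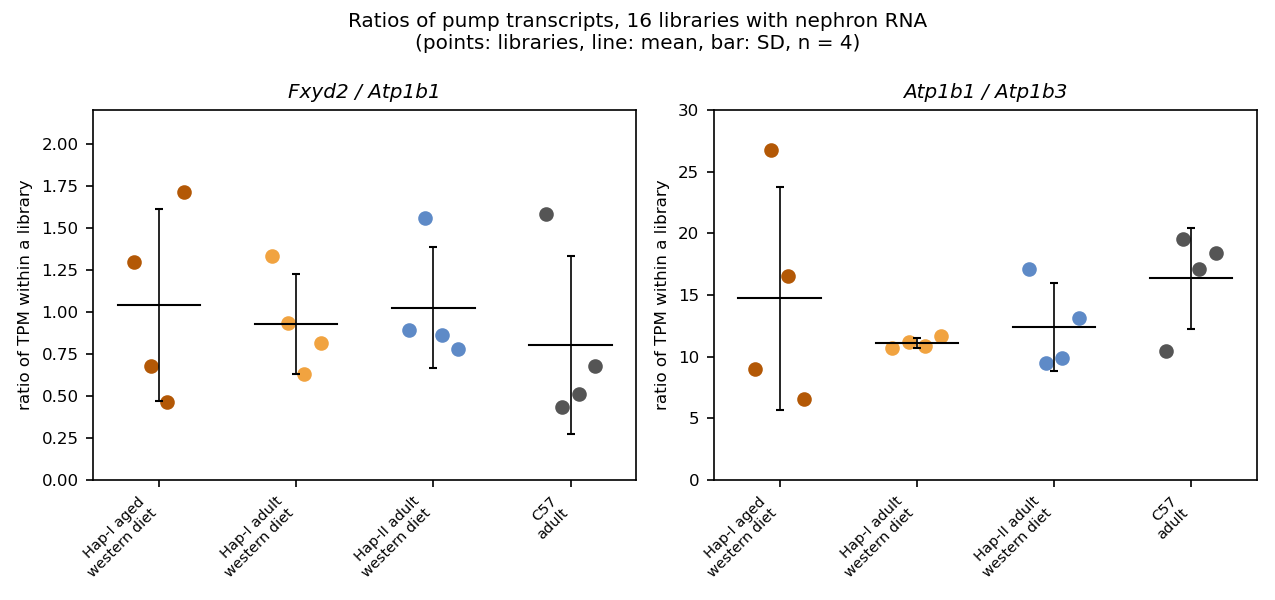
Points give the ratio of TPM of 2 genes within each of the 16 nephron libraries, with group means as lines and SD as bars (n = 4). Both ratios overlap between groups on western diet and C57 adults, and Atp1b1 to Atp1b3 spreads from 6.56 to 26.8 in aged Hap-I mice and only from 10.7 to 11.7 in Hap-I adults.

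The haplotypes were compared in adults on western diet, Hap-I against Hap-II. Limma called 0 of 6 members tested, where 0.0774% of all genes were called (10 of 12923, and 421 at an unadjusted p below 0.05). Fxyd1 had the largest difference, 3.40 ± 1.90 TPM in Hap-I adults and 1.22 ± 0.557 TPM in Hap-II adults (SD, n = 4; log2 change 0.91 ± 0.43 SE, adjusted p = 0.817), and the groups overlapped. Atp1b1 averaged 449.8 ± 97.2 TPM in Hap-I adults and 612 ± 309 TPM in the Hap-II adults (-0.33 ± 0.45, adjusted p = 0.827). Fxyd2 averaged 428 ± 201.5 TPM in Hap-I adults and 635 ± 368 TPM in the Hap-II adults (-0.47 ± 0.43, adjusted p = 0.817). The other 3 differed by 0.36 (Atp1b2), -0.21 (Atp1b3) and -0.33 (Fxyd6), all with overlap. With SE of 0.25 to 0.45, differences of this size could not be told from the spread between libraries.

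Age was compared on western diet, aged against adult Hap-I mice, and limma again called 0 of 6 members, where 0.031% of all genes were called (4, and 2080 at an unadjusted p below 0.05). Atp1b1 spread most, at 393, 1489, 794 and 278 TPM in the aged and 312 to 519 TPM in adult mice on the diet (0.44 ± 0.45, adjusted p = 0.567). Fxyd2 had 510.1, 1011, 368 and 476 TPM in aged mice, against 253 to 689 TPM in adults on the diet (0.48 ± 0.43, adjusted p = 0.528). Fxyd1 averaged 1.59 ± 1.47 TPM in the aged and 3.40 ± 1.90 TPM in adult mice (-0.84 ± 0.43, adjusted p = 0.332). Atp1b2 (0.20), Atp1b3 (0.24) and Fxyd6 (0.18) all lay below the median of all genes, 0.32. Both Fxyd5 and Fxyd4, which are no members, had groups without overlap but no call, with 36.5 ± 10.1 TPM in the aged and 17.7 ± 4.91 TPM in adult mice for Fxyd5 (adjusted p = 0.152) and 0.0568 and 0.412 TPM for Fxyd4 (adjusted p = 0.358). How many of all genes lacked overlap here was not computed.

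Age without the diet was compared in the 8 neural libraries, in a fit of their own. Limma called 0 of 7 members, where 0.0296% of all 13497 genes were called (4, and 2081 at an unadjusted p below 0.05). Atp1b1 averaged 1954 ± 65.6 TPM in the aged and 1555 ± 228 TPM in adult libraries, without overlap (0.34 ± 0.13 SE, adjusted p = 0.271). Atp1b3 averaged 102 ± 11.2 TPM in the aged and 85.1 ± 5.13 TPM in adult libraries, also without overlap (0.26 ± 0.11, adjusted p = 0.294), and Atp1b2 359 ± 30.6 and 317 ± 31.6 TPM (0.18 ± 0.11, adjusted p = 0.448). The share of all genes without overlap between these ages was not computed, so the separate ranges are a description. The FXYD genes lay on the other side of 0, with Fxyd6 at 31.9 ± 13.5 TPM in the aged and 45.03 ± 9.49 TPM in adult libraries (-0.55 ± 0.26, adjusted p = 0.334). Fxyd1 had 22.7 ± 8.45 and 29.5 ± 5.90 TPM (-0.44 ± 0.28, adjusted p = 0.47), and Fxyd7 72.6 ± 22.9 and 79.0 ± 24.0 TPM (-0.13 ± 0.25, adjusted p = 0.828). Fxyd2 had 2.51 ± 1.29 and 5.63 ± 2.91 TPM (-0.88 ± 0.35, adjusted p = 0.286). Summed oligodendrocyte markers, none of them at 0, came to 4416 to 5555 TPM in the aged and 2783 to 3806 TPM in adult libraries. Limma called 0 of these 7 markers, with a median log2 change of 0.54 where that of all genes was 0.12. The part of these markers in the member values was not tested.

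Genes whose levels ran most like a member were ranked by Pearson's r of log2(TPM + 1), as a description over libraries that share groups and scaling. Over the 16 nephron libraries and 7694 genes with a mean of at least 5 TPM, those most like Atp1b1 were Tax1bp1 (r = 0.991, Spearman's rho 0.959), Eif2ak1 (0.985, rho 0.968) and Sdha (0.984, rho 0.991). Those most like Atp1b3 were Cd82, Abhd12 and Slc25a35 (r of 0.983, 0.982 and 0.982). Those most like Fxyd2 were Cldn19, a tight junction gene of the thick ascending limb (r = 0.967, rho 0.950), Ckb (0.965) and Tubb2b (0.963). Over the 8 neural libraries and 10039 genes, the first were Dock11 for Atp1b1 (r = 0.988), Nova1 for Atp1b2 (0.956), Hmox1 for Atp1b3 (0.982), Gm2a for Fxyd1 (0.915), Cd151 for Fxyd6 (0.980) and Pink1 for Fxyd7 (0.978). Next came Srcap and Pogz, Mat2b and Vegfa, Tcea2 and Arpin, Ppp1r10 and Vps37c, Plpp4 and Ndn, and Csdc2 and Rell2, in the same order of members. For Vps37c the relation rested on 2 libraries, since r was 0.894 with them and -0.342 without the 2 farthest from the median of Fxyd1. Without the same libraries r with Fxyd1 fell from 0.894 to 0.576 for Ppp1r10 and from 0.915 to 0.808 for Gm2a. No p is given for these values.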

How the data were processed

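The deposited file is a table of TPM per gene and library made by the authors, with Ensembl identifiers and no symbols. Per the submitters' processing notes, kallisto, DESeq2 and the build GRCm38 were used, with no versions or roles. Per the labels' protocols, RNA was extracted with a Qiagen kit and stranded TruSeq libraries were made after polyadenylated pull-down. How transcript values were summed to genes is not stated there. TPM keep no read counts, so depth is unknown and no counting interval or floor is given. Summed over genes, the deposited TPM come to between 904693 and 944019 a library.

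Identifiers were matched to GENCODE M21 on GRCm38 (29732 matched, 421 did not). Moderated linear models (limma 3.58.1, R 4.3.3, eBayes with a mean-variance trend) were fitted to log2(TPM + 1), two-sided, with Benjamini-Hochberg adjustment at 0.05 over all genes that reached 1 TPM in 4 or more libraries of the fit. Fold changes on this scale understate changes of low genes. The nephron comparisons used 16 libraries with a spread shared by 4 groups, age in neural RNA used 8, and neural against nephron RNA used all 24. The code was tested on simulated data. Only the design text calls the 4 libraries of a group separate animals. No pair of libraries shared more than 1 identical value above 0.

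All 7 members, and 11 other family genes, are named whatever their values. Other genes of the family are not reported here. Of other lists, up to 4 called genes with the largest change could be named. The 3 genes most like a member are those of highest r among genes with a mean of at least 5 TPM. Members and lists were chosen with earlier results of these data known. Alternatives were quantile normalization, median-of-ratios rescaling, a pseudocount of 0.1, a filter of 5 TPM or none, TPM without mitochondrially encoded genes, all 24 libraries or only the compared groups in the fit, a Y-linked covariate, the title number as a block, each library left out in turn and, added after seeing the data, leaving out the 2 nephron libraries with the fewest genes above 0. Figures were drawn with matplotlib 3.10.9 in Python 3.11.15.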

Additional observations from a re-analysis of the deposited data

Results flagged for a closer look

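Of 42 sets of 4 libraries (7 members in 6 groups), 40 held a spread of values and 39 of these held no more than 1 value of 0. In 2 sets 1 library stood far from the other 3 by Dixon's 95% limit, which chance alone passes in about 1 set in 20 of continuous values. Atp1b2 was 2.05 TPM in library 1 of Hap-II adults on western diet and 0.997 to 1.09 TPM in the others of that group, and the gap took 0.908 of the whole range. Fxyd7 was 0.0607 TPM in library 1 of Hap-I adults on western diet and listed at 0 in the other 3, where any value above 0 stands apart and the rate of 1 in 20 does not apply.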

How the results depend on the processing

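In Hap-I adults on western diet against C57 adults, the number of members called lower was 5, and it became 1 with median-of-ratios rescaling, 3 with the Y-linked covariate and 4 to 5 as each library was left out. In Hap-II adults against C57 adults it was 4, and it became 1 with median-of-ratios rescaling, 2 with the Y-linked covariate, 2 without the 2 libraries with the fewest genes and 2 to 5 as each library was left out. The other settings kept these counts within 1.5 times, and 0 members were called higher, or in either direction in the other comparisons, under every setting run. Fxyd1 in Hap-I adults against C57 adults changed sign with median-of-ratios rescaling (0.62), quantile normalization (0.67), mitochondrial genes removed (0.099), the Y-linked covariate (0.39), and without library 3 of Hap-I adults (0.16) or 1 of C57 adults (0.17), within a range of -0.40 to 0.17 as each library was left out. Members never called also changed sign. Between haplotypes, Atp1b3 came to 0.066 with median-of-ratios rescaling and 0.011 with quantile normalization. For age on the diet these 2 scalings gave -0.07 and -0.197 for Atp1b2, -0.174 and -0.031 for Atp1b3, and -0.04 and -0.074 for Fxyd6. Atp1b2 there came to -0.058 without the 2 libraries with the fewest genes, and ranged over -0.058 to 0.47 as each library was left out, turning below 0 without library 4 of adults or 2 of aged mice. Fxyd6 ranged over -0.089 to 0.51, turning below 0 without library 3 of adults or 4 of aged mice. For age in neural RNA, Fxyd7 came to 0.41 with the Y-linked covariate and ranged over -0.268 to 0.06 as each library was left out, above 0 without library 1 of adults or 2 of aged mice. Between neural and nephron RNA, Atp1b3 came to -0.165 with median-of-ratios rescaling. The cause of these shifts was not tested.

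Counts of all genes also moved. The Y-linked covariate gave 129 higher and 3155 lower in Hap-I and 184 and 1742 in Hap-II adults against C57 adults. With mitochondrial genes removed these were 598 and 5180, and 493 and 2920, and without the 2 libraries with the fewest genes Hap-II gave 147 and 2054. Quantile normalization gave 1466 and 1417 for Hap-II. With all 24 libraries in the fit, age on the diet gave 411 higher and 32 lower and age in neural RNA 58 and 7, and the Y-linked covariate gave 0 and 0 for age in neural RNA. Between neural and nephron RNA, median-of-ratios rescaling gave 6673 higher and 6152 lower and quantile normalization 6318 and 6680, in place of 9654 and 3639. The title numbers were not taken to pair the libraries, since 1 of 4 same-numbered pairs in each comparison correlated below the 0.1 asked of every pair (deviations at -0.045 to 0.525 for haplotype and 0.040 to 0.458 for age on the diet). As a hint from the data, 5 of 8 libraries correlated best with their own number in each. As each library was left out, Hap-I adults against C57 adults gave 189 to 316 higher and 5800 to 7788 lower, Hap-II adults 125 to 450 and 1678 to 6511, age on the diet 2 to 20 and 0 to 3, and age in neural RNA 1 to 5 and 0 to 2. With the replicate block, 0 members were called for haplotype or age on the diet, and 1 gene higher and 4 lower and 2 higher and 0 lower over all genes. Depth is unknown, which limits the low values of Fxyd1, Fxyd6, Fxyd7 and Atp1b2 in nephron RNA.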
